A study of Saccharomyces cerevisiae with 6 samples.

Results

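The 45 genes described here encode the nuclear parts of aerobic energy metabolism in budding yeast. They are 10 genes of the citric acid cycle, the 4 subunits of succinate dehydrogenase, the internal NADH dehydrogenase NDI1, 9 subunits of complex III, the cytochrome c gene CYC1, 8 subunits of complex IV and 12 subunits of the mitochondrial ATP synthase. They were chosen by systematic name as enzymes and subunits of these machines, with earlier results of these data known. All 45 are among the 5560 genes in the tables. They were measured by SLAM-seq of budding yeast, Saccharomyces cerevisiae, in 3 cultures of a upf3 deletion and 3 cultures of the wild type, both in BY4741. BY4741 is a haploid laboratory strain descended from S288C that lacks HIS3, LEU2, MET15 and URA3. The UPF3 protein acts in nonsense-mediated mRNA decay, which degrades messages with a premature stop codon, and the series compared half-lives between the genotypes to find its targets. In SLAM-seq, new RNA takes up 4-thiouracil (4TU), which is then chased, and T>C conversions in the reads mark molecules made before the chase. Each culture gave 7 libraries of 3′ ends, 1 unlabelled (DMSO) and 6 labelled with 4TU, at chase times near 0, 1, 4, 8, 18 and 58. Chase times stand in the tables without a unit and were taken to be minutes. The labels also name no growth medium or carbon source, and do not say whether the deletion cultures came from 1 clone.

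The citric acid cycle oxidises acetyl-CoA in the mitochondrial matrix and hands electrons to NADH and, through succinate dehydrogenase, to ubiquinone. Complex III passes them by way of cytochrome c to complex IV, where oxygen is reduced, and the proton gradient built on the way drives the ATP synthase; budding yeast has no complex I and oxidises matrix NADH with the single-subunit enzyme Ndi1. Yeast represses many of these genes on glucose, and the Hap2/3/4/5 complex, whose limiting subunit is Hap4, activates them on other carbon sources. CIT1, ACO1, IDH1 and IDH2 also answer to the retrograde factors Rtg1 and Rtg3, and S288C strains carry a Ty1 insertion in HAP1, which encodes the heme-dependent activator of CYC1.

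The 42 libraries held 11045419 to 23761767 reads, of which the 45 members took 0.885% to 1.41%. The lowest count of any member in any library was 62 reads, for SDH1. UPF3 itself stood at 4.32, 5.40 and 6.18 CPM over the chase in deletion cultures, against 24.1, 27.5 and 30.7 CPM in wild-type cultures. CPM here are the usual depth-normalised counts after TMM scaling, so they are shares of the reads, and a smaller share and less RNA per cell cannot be told apart. The difference of UPF3 was −2.37 on the log2 scale, and its adjusted p was 0.00297 (edgeR's quasi-likelihood test with Benjamini-Hochberg adjustment over all genes tested, two-sided, threshold 0.05, as for every adjusted p of reads below). The series' design text calls the cultures biological triplicates.

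Replicate 1 of both genotypes stood apart in reads of the members. Over the chase, ATP1 had 117, 437 and 460 CPM in deletion cultures 1, 2 and 3 and 228, 551 and 548 CPM in wild-type cultures 1, 2 and 3. QCR10 went the other way, at 137, 62.8 and 62.6 CPM in the deletion cultures and 130, 72.7 and 69.4 CPM in the wild-type cultures. Replicate 1 was low for the longest member genes and high for short ones in both genotypes. Across the 45 members, the Spearman correlation of gene length with the log2 ratio of replicate 1 to the other replicates was −0.759 in the deletion and −0.663 in wild type over the chase, and −0.336 and −0.590 in the unlabelled libraries. Over 5507 genes the chase values were −0.569 and −0.493, so the members shared this with the other genes. The members' points come from the same libraries, and these correlations are descriptions. The deletion replicate 1 library near 4 min (4.57 in the tables) also correlated least with its own culture, at a median r of 0.908 across genes. Identifiers in the library names recurred in full between deletion replicates 1 and 2, and between wild-type replicate 1 and deletion replicate 3. What these identifiers mark was not stated. Results that rest on replicate 1 are given below with and without it.

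**Figure D1:**
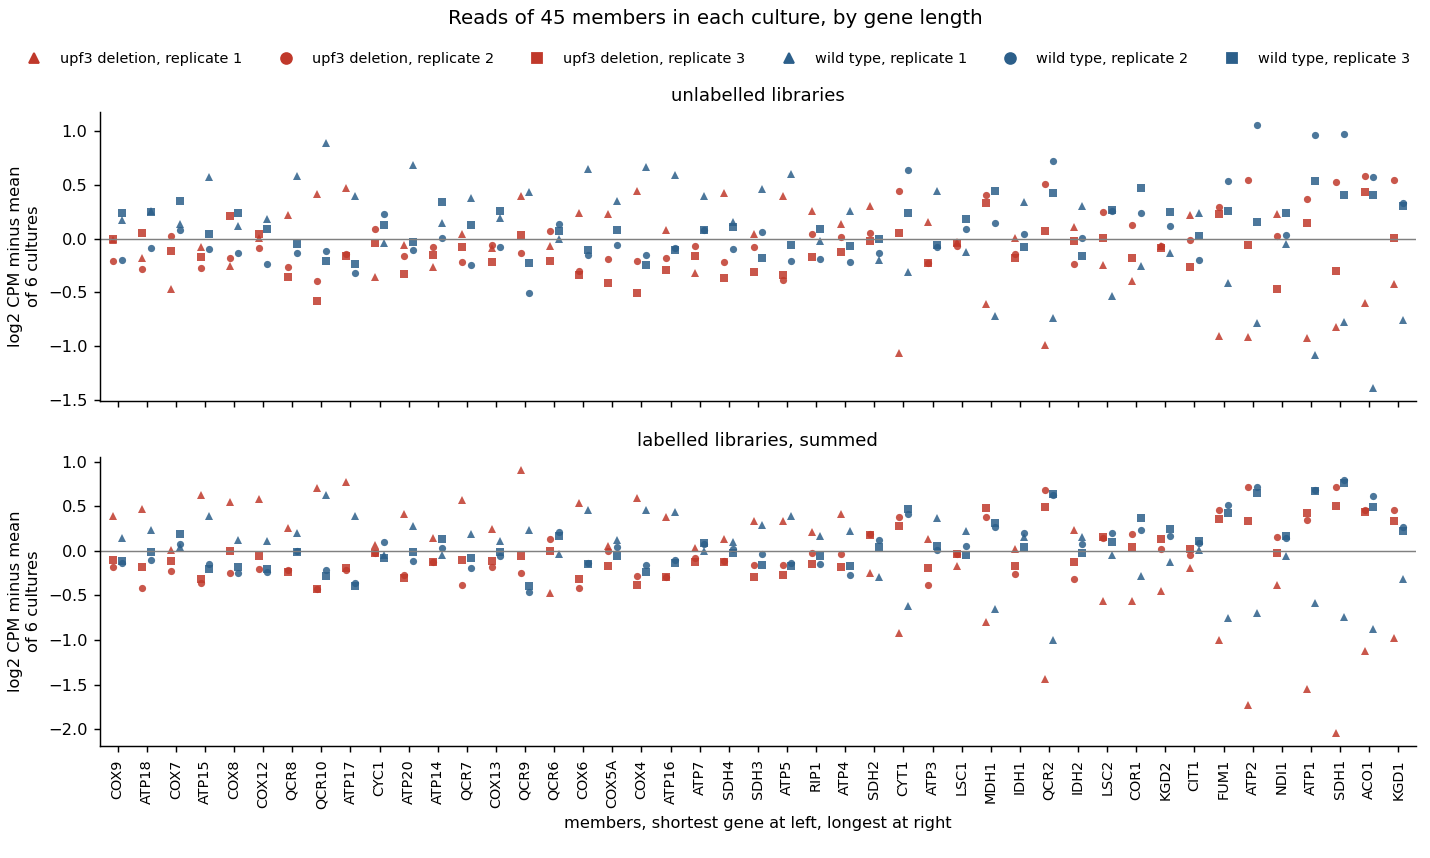
Reads of each member in each culture, as log2 CPM minus the mean of the 6 cultures (y axis), for unlabelled libraries above and summed labelled libraries below, with the shortest gene at the left and the longest at the right. Triangles are replicate 1, circles replicate 2 and squares replicate 3; in the lower plot, triangles of both genotypes sit below the other points for most of the longest genes, as for ATP1 with 117 CPM in deletion replicate 1 against 437 and 460 in the other deletion cultures.

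The largest movement of the members was a dip in reads during the chase, and IDH1, IDH2, ACO1 and MDH1 of the citric acid cycle showed it most. Near 18 min, 21 of the 45 members had fallen against the first chase point and 0 had risen, where 14.0% of the 5545 genes tested had fallen and 15.1% had risen. The median change was −0.30 on the log2 scale over the members and 0.02 over all genes tested. Of the members, 41 of 45 lay below 0, against 47.32% of genes tested. In 23 members the reads were lower in 6 of 6 cultures, as in 14.6% of genes tested, and higher in 6 of 6 in 0 members, against 15.2% of genes. These tests average over the genotypes, with the culture as a term. With replicates 2 and 3 only, 33 members fell and 1 rose, against 21.2% and 23.9% of genes tested, and 20 of the 21 calls were among them.

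**Figure D2:**
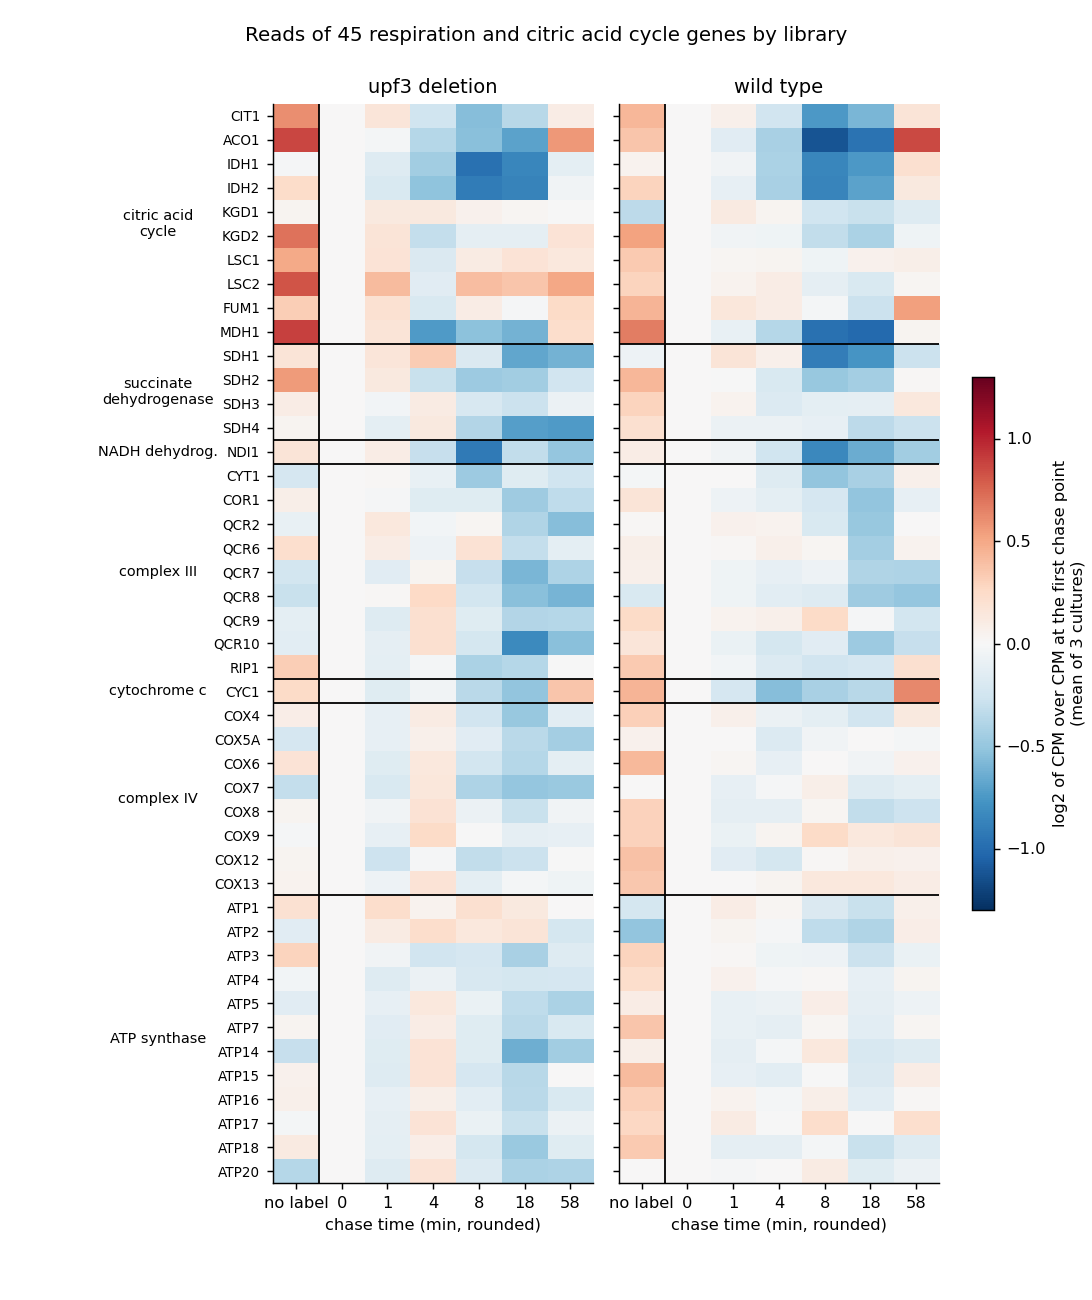
Log2 ratio of each member's CPM to its CPM at the first chase point (colour, mean of 3 cultures), for each library type from unlabelled to near 58 min, in the upf3 deletion at the left and wild type at the right. Blue cells near 8 and 18 min cluster in CIT1, ACO1, IDH1, IDH2, MDH1, SDH2 and NDI1, and ACO1 and CYC1 are red near 58 min.

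Of the 10 citric acid cycle genes, 5 fell near 18 min, 4 of them by 41.9% to 43.8%. ACO1 encodes aconitase (YLR304C, chromosome XII, 735212 to 737548, build R64, as for all coordinates here). It stood at 125, 321 and 350.5 CPM near 18 min against 180, 644 and 519 CPM at the first point in deletion cultures 1, 2 and 3, and at 127, 362 and 321 CPM against 249, 696 and 626 CPM in the wild-type cultures. Every culture was lower near 18 min, and ACO1 fell by 43.8% (log2 −0.83 ± 0.11 SE, adjusted p = 9e-07). IDH1, a subunit of the NAD-dependent isocitrate dehydrogenase (YNL037C, chromosome XIV, 557920 to 559002), had 120, 88.0 and 111 CPM near 18 min against 265, 163 and 156 CPM at the first point in the deletion cultures. The wild-type cultures had 130, 137 and 123 CPM against 216, 234 and 204 CPM. The ranges of the 2 points did not overlap in either genotype, and IDH1 had the lowest p of the members (fell by 42.4%, log2 −0.80 ± 0.09, adjusted p = 7.24e-08). IDH2, its partner subunit, fell by 41.9% (log2 −0.78 ± 0.10, adjusted p = 4.64e-07), again in 6 of 6 cultures.

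MDH1, the mitochondrial malate dehydrogenase (chromosome XI, 279123 to 280127), fell by 43.5% (log2 −0.82 ± 0.16, adjusted p = 0.000255), with a small change of −0.04 in deletion replicate 1 and changes of −0.86 to −1.15 in the other 5 cultures. CIT1, citrate synthase (chromosome XIV, 629622 to 631061), fell by 28.2% (log2 −0.48 ± 0.11, adjusted p = 0.00151). It was lower in 5 of 6 cultures, from −0.47 to −0.70, and at 0.09 in deletion replicate 1. The other 5 genes of the cycle did not pass. They ran from KGD2, the E2 subunit of 2-oxoglutarate dehydrogenase, at −0.27 to LSC1, the alpha subunit of succinyl-CoA ligase, at 0.12, which was the highest of the 45 members.

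The dip was already there near 8 min, an alternative time point chosen after seeing the data. Against the first point, 11 members had fallen and 0 had risen near 8 min, where 11.9% of genes tested had fallen and 14.1% had risen. IDH1 stood at −0.91 ± 0.09 on the log2 scale (adjusted p = 4.44e-09) and IDH2 at −0.89 ± 0.10 (adjusted p = 4.2e-08). NDI1 came next by p, at −0.88 ± 0.11 (adjusted p = 4.94e-07), followed by ACO1 at −0.83 ± 0.11 and CIT1 at −0.65 ± 0.11. Of the 9 genes of complex III, COR1, CYT1 and RIP1 were called near 8 min and 8 near 18 min. Whether members differ in timing was not tested.

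Late in the chase most of these cycle genes rose again. The last point against the point near 18 min, a comparison added after seeing the data, called 12 members higher and 0 lower, where 9.77% of genes tested were higher and 7.74% lower. It shares the 18 min libraries with the comparison above, so the return is not independent of the dip. ACO1 rose 1.54 ± 0.11 on the log2 scale (adjusted p = 1.44e-11), to 318, 758 and 810 CPM in the deletion cultures and 443, 1188 and 1218 CPM in the wild-type cultures. MDH1 rose by 0.94 ± 0.16 (adjusted p = 5.94e-05), IDH1 by 0.83 ± 0.09 (adjusted p = 4.57e-08), IDH2 by 0.82 ± 0.10 (adjusted p = 2.28e-07) and CIT1 by 0.61 ± 0.11 (adjusted p = 0.00013), each in 6 of 6 cultures. With FUM1, fumarase, 6 of the 10 cycle genes rose. CYC1 rose by 0.93 ± 0.12 (adjusted p = 9.28e-07), and SDH2, COR1, QCR6, RIP1 and COX4 rose by 0.27 to 0.40, whereas 0 of 12 ATP synthase genes were called. Restricted to replicates 2 and 3, 20 members were higher and 1 was lower, where 16.8% of genes tested were higher and 17.4% lower, and all 12 were among the 20.

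**Figure D3:**
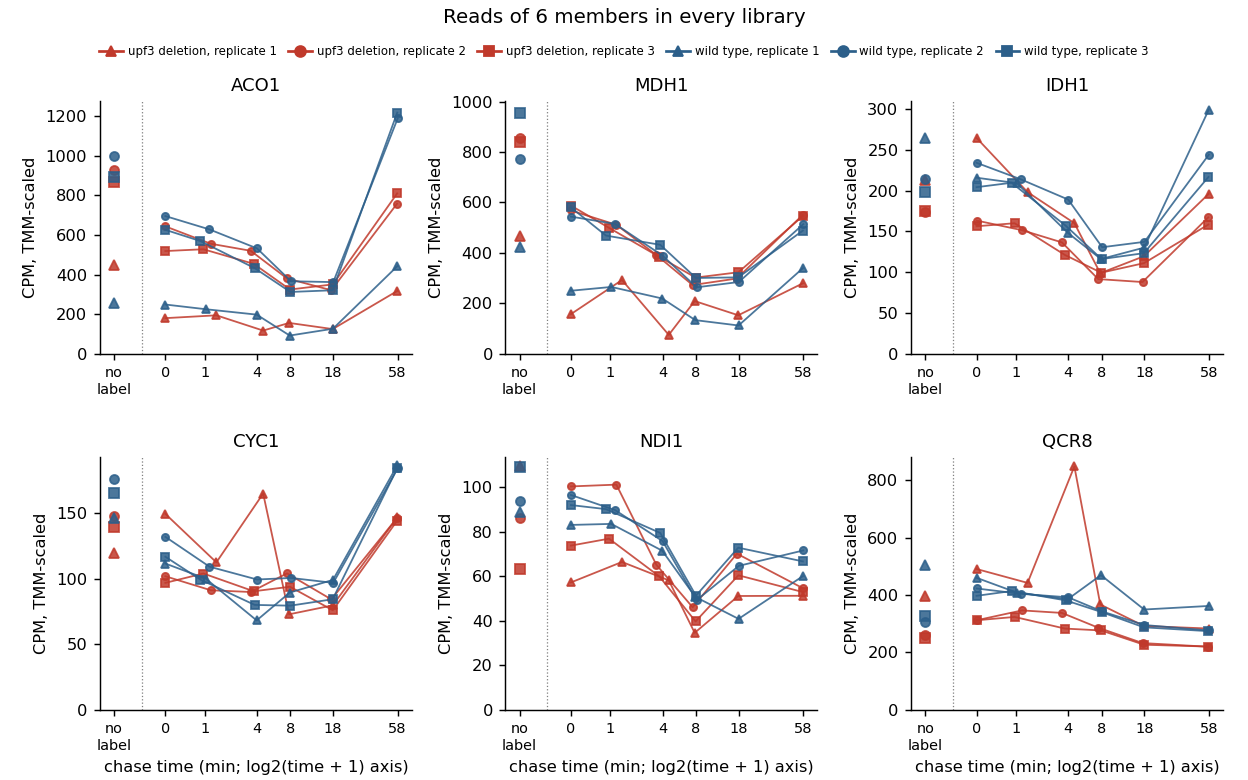
CPM (y axis, TMM-scaled, from 0) of ACO1, MDH1, IDH1, CYC1, NDI1 and QCR8 in every library, unlabelled at the left and then by chase time on a log2(time + 1) axis; red is the upf3 deletion and blue wild type, with 1 line for each culture. ACO1 reaches 125 to 362 CPM near 18 min and 318 to 1218 CPM near 58 min, while NDI1 and QCR8 end below their first point in every culture; the high point of QCR8 at 849 CPM is the library of deletion replicate 1 near 4 min that stood apart.

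Set against the first point, the last point therefore held members on both sides. It had 3 members higher, where 13.5% of genes tested were higher, and 5 lower, where 10.9% were lower. The share of members called higher was thus below the background, and the share called lower was about the same as the background. These calls therefore describe single genes and do not set the members apart from other genes. In 6 of 6 cultures, 6 members were lower and 2 higher (ACO1 and LSC1), against 9.59% and 11.8% of genes tested. ACO1 was higher in 6 of 6 cultures (log2 0.71 ± 0.11, adjusted p = 1.31e-05). CYC1, iso-1-cytochrome c (YJR048W, chromosome X, 526335 to 526664), had 147, 146 and 144 CPM at the last point against 150, 102 and 96.9 CPM at the first in the deletion cultures. The wild-type cultures had 187, 184 and 184 CPM against 112, 132 and 117 CPM. CYC1 was higher in 5 of 6 cultures and level in deletion replicate 1 (log2 0.49 ± 0.12, adjusted p = 0.00329). FUM1 was also higher (log2 0.39 ± 0.13, adjusted p = 0.0246).

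The 5 members called lower at the last point were 3 genes of complex III, 1 of succinate dehydrogenase and NDI1. QCR8, a small subunit of complex III (chromosome X, 106434 to 106718), had 284, 220 and 221 CPM at the last point against 491, 312 and 312 CPM at the first in the deletion cultures. Wild-type cultures had 362, 277 and 274 CPM against 460, 423 and 398 CPM. Each culture was lower, and QCR8 fell by 31.5% (log2 −0.55 ± 0.12, adjusted p = 0.000689). SDH4, a membrane anchor of succinate dehydrogenase, fell by 29.7% (log2 −0.51 ± 0.11, adjusted p = 0.00132). NDI1 (YML120C, chromosome XIII, 28266 to 29807) had 51.2, 54.7 and 52.9 CPM at the last point against 57.2, 100 and 73.7 CPM at the first in the deletion cultures. In the wild-type cultures it had 60.1, 71.5 and 66.6 CPM against 83.0, 96.5 and 91.9 CPM, and it was lower in 6 of 6 cultures (log2 −0.49 ± 0.11, adjusted p = 0.00204). QCR10 (log2 −0.43 ± 0.14, adjusted p = 0.0214) and COR1, a core subunit of complex III (log2 −0.22 ± 0.07, adjusted p = 0.0205), were the other two.

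The number of members called at the last point depended on single libraries. Without deletion replicate 1, 8 members were lower, where 11.8% of genes tested were, and without the deletion replicate 1 library near 4 min, 11 were, where 13.6% of genes were. Without wild-type replicate 2 or without wild-type replicate 3, 3 were lower, where 6.92% and 6.97% of genes were, so the background moved too. Without deletion replicate 3 only ACO1 was higher, where 8.07% of genes were: CYC1 then had an adjusted p of 0.0618 and FUM1 of 0.103, and FUM1 also missed the threshold when any of the wild-type replicates was left out, at 0.0649 to 0.127. COR1 missed it in the same way at 0.0538 to 0.0912, and QCR10 at 0.0903 without wild-type replicate 2 and 0.133 without wild-type replicate 3. Replicates 2 and 3 alone gave 3 members higher and 13 lower, where 22.0% and 19.1% of genes tested were, and the 8 calls were all among them.

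In the respiratory chain, 8 of 9 genes of complex III and 1 of 8 genes of complex IV fell near 18 min, where 14.0% of all genes tested fell. The difference between the complexes was not tested. With replicates 2 and 3 only, CYT1 of complex III missed the threshold (adjusted p = 0.052). In complex IV, COX5A, COX6 and COX7 were then also lower, and COX13 was higher. In succinate dehydrogenase 3 of 4 genes fell. SDH2, the iron-sulfur subunit (YLL041C, chromosome XII, 53131 to 53931), whose transcript is known in yeast for being destabilised by glucose, had 68.5, 87.1 and 89.7 CPM near 18 min against 96.3, 129 and 111 CPM at the first point in the deletion cultures. The wild-type cultures had 67.0, 84.6 and 89.0 CPM against 79.0, 131 and 122 CPM, and SDH2 fell by 26.8% (log2 −0.45 ± 0.11, adjusted p = 0.00239). SDH4 fell by 30.2% (adjusted p = 0.000957), SDH1, the flavoprotein, by 39.4% (adjusted p = 0.0248), and SDH3, the other anchor, stood at −0.19 without passing. NDI1 fell by 28.2% (log2 −0.48 ± 0.11, adjusted p = 0.00207).

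In complex III, COR1 (YBL045C, chromosome II, 134143 to 135516) changed evenly across cultures, with log2 changes of −0.53, −0.45 and −0.42 in the deletion cultures and −0.61, −0.48 and −0.45 in the wild-type cultures (fitted −0.49 ± 0.07, adjusted p = 2.66e-06). QCR10 had the largest fall of the complex (log2 −0.65 ± 0.14, adjusted p = 0.000576), with −1.34 in deletion replicate 1 and −0.39 to −0.61 in the other cultures. QCR8 fell by 29.3% (log2 −0.50 ± 0.12, adjusted p = 0.0015). RIP1, the Rieske iron-sulfur protein (chromosome V, 107260 to 107907), fell by 18.6%, with changes of −0.33 to −0.41 in the deletion cultures and −0.20 to −0.23 in the wild-type cultures (adjusted p = 0.00666), and its adjusted p was 0.0504 without wild-type replicate 2 and without wild-type replicate 3. QCR9, at −0.20, was the gene of the complex that did not pass. CYC1 fell by 26.3% (log2 −0.44 ± 0.12, adjusted p = 0.00637), and its adjusted p was 0.0655 without wild-type replicate 2 and 0.0681 without wild-type replicate 3.

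In complex IV only COX4 fell (log2 −0.37 ± 0.11, adjusted p = 0.00935). The other 7 genes ran from COX7 at −0.34 to COX13 at 0.05. COX5A, the aerobic isoform of a subunit that has a low-oxygen twin in COX5B, stood at −0.17 ± 0.09 (adjusted p = 0.181). In the ATP synthase 2 of 12 genes fell, where 14.0% of all genes tested fell, although all 12 were below 0. The 2 genes were ATP3, the gamma subunit of the F1 rotor (log2 −0.36 ± 0.08, adjusted p = 0.00131), and ATP14, a peripheral subunit (log2 −0.42 ± 0.14, adjusted p = 0.0185). ATP1, the F1 alpha subunit, stood at −0.08 (adjusted p = 0.742), and ATP5, the subunit that joins F1 to its stator, at −0.22 (adjusted p = 0.0798). In replicates 2 and 3 alone, both passed, ATP1 at −0.30 (adjusted p = 0.0378) and ATP5 at −0.22 (adjusted p = 0.00676), as did COX5A at −0.23 (adjusted p = 0.0119). ATP7, ATP15, ATP16, ATP18, ATP20, COX6 and COX7 were then lower too, and ATP3, ATP14 and COX4 stayed so. COX13 was higher, and ATP2, ATP4, ATP17, COX8, COX9 and COX12 did not pass. Of all genes tested, 21.2% were then lower and 23.9% higher. The counts in complex IV and the ATP synthase thus depended on replicate 1, and the background moved too. Leaving out the deletion replicate 1 library near 4 min gave 30 members lower in place of 21, where 16.8% of genes tested were lower. Leaving out wild-type replicate 2 gave 13, where 8.18% of genes were lower, and wild-type replicate 3 gave 12, where 8.97% were.

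**Figure D4:**
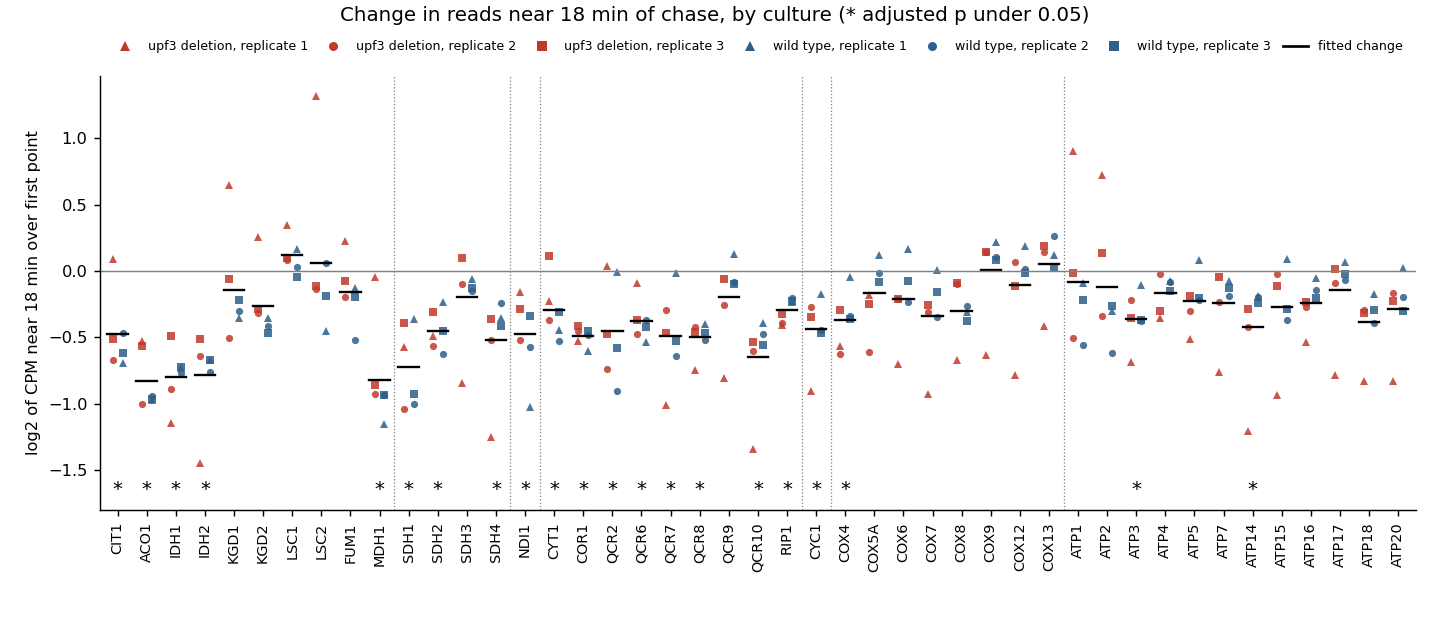
Log2 ratio of CPM near 18 min to CPM at the first chase point for each member in each culture (y axis), grouped by enzyme or complex, with red for the upf3 deletion at the left of each gene and blue for wild type at the right. Black bars are the fitted changes and stars mark the 21 genes with adjusted p under 0.05; red triangles, deletion replicate 1, often lie farthest from the bars, as in QCR10 at −1.34.

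Reads of 11 members, 7 of them citric acid cycle genes, were lower at the first chase point than without label. At the first chase point against the unlabelled libraries of the same cultures, 11 members were lower and 0 higher, where 8.26% of genes tested were lower and 10.9% higher. In 7 of these members reads were lower in 6 of 6 cultures, as in 7.32% of genes tested, and 0 were higher in 6 of 6, against 8.28%. Of the 10 cycle genes 7 fell: ACO1, KGD2, CIT1, MDH1, LSC1, FUM1 and LSC2, the beta subunit of succinyl-CoA ligase. MDH1 had 158, 568 and 588 CPM at the first point against 466, 854 and 841 CPM without label in the deletion cultures. The wild-type cultures had 250, 544 and 580 CPM against 423, 771 and 956 CPM. All 6 cultures were lower with label, by 40.9% in the fit (log2 −0.76 ± 0.16, adjusted p = 0.00115). ACO1 was 34.9% lower (log2 −0.62 ± 0.11, adjusted p = 0.000172), with −0.04 in wild-type replicate 1 and −0.51 to −1.32 in the other cultures.

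KGD2 was 35.0% lower (adjusted p = 0.000379), CIT1 30.9% lower (adjusted p = 0.000911) and SDH2 29.4% lower (adjusted p = 0.00147), each in 6 of 6 cultures. RIP1, at −0.33 ± 0.08 (adjusted p = 0.00446), and LSC1, at −0.43 ± 0.12 (adjusted p = 0.00993), were also lower in 6 of 6 cultures. ATP3 (−0.28, adjusted p = 0.0146), FUM1 (−0.38, 0.0344), LSC2 (−0.54, 0.0429) and CYC1 (−0.34, 0.0431) were lower in 5 of 6. Single cultures decided some of these calls. CYC1 missed the threshold when deletion replicate 2 or 3 or any wild-type replicate was left out (adjusted p = 0.115 to 0.22). ATP3 missed it without deletion replicate 2 or 3 or wild-type replicate 1 or 3 (0.0655 to 0.166), FUM1 without deletion replicate 3 or any wild-type replicate (0.0732 to 0.234), and LSC2 without deletion replicate 2 or any wild-type replicate (0.0554 to 0.211). LSC1 missed it without wild-type replicate 2 (0.0554) or 3 (0.0964), and RIP1 without wild-type replicate 3 (0.0822). COX5A, ATP1 and ATP5 stood at 0.08, 0.01 and 0.02, and NDI1 at −0.15 (adjusted p = 0.402). Without deletion replicate 1 the fit called 25 members lower and 2 higher, where 19.3% of genes tested were lower and 18.3% higher, and without wild-type replicate 3 it called 5 lower, where 3.19% of genes were. Without wild-type replicate 1 or 2 it called 7 lower, where 5.97% and 5.21% of genes were. From replicates 2 and 3 alone, 25 were lower and 3 higher (QCR8, ATP2 and QCR2), where 22.4% and 26.1% of genes tested were. All 11 calls were among the 25. The others of the 25 were IDH2, SDH3, COX4, COX6, COX8, COX9, COX12, COX13, ATP4, ATP7, ATP15, ATP16, ATP17 and ATP18, so the calls there were not mostly cycle genes. The unlabelled libraries carry a chase time of 0, as the first chase point does. Whether that value marks the same moment of sampling was not tested, so label and the time of sampling were not separated here.

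Between the genotypes no member passed the test on reads, which held no term for the replicate number. On simulated data this test over the chase recovered 0% of genes changed by 1 on the log2 scale and 88.5% of those changed by 2. Differences of 1 or less could therefore be missed. Over the labelled libraries, 0 of 45 members were called higher or lower in the deletion, where 5.58% of 5555 genes tested were higher and 0.180% lower. The members' median difference was −0.08, against −0.01 over all genes tested. Of the members, 33 of 45 lay below 0, against 51.09% of genes tested. By unadjusted p under 0.05, 0 members passed in this edgeR test, and DESeq2 also called 0. IDH1 had the lowest p, at 165, 136 and 144 CPM in the deletion cultures against 180, 186 and 167 CPM in the wild-type cultures. These groups did not overlap, but the difference missed the threshold (log2 −0.26 ± 0.16, adjusted p = 0.587). Next by p were ATP3 (−0.28 ± 0.20, adjusted p = 0.703) and COX7, a small complex IV subunit (−0.22 ± 0.16, adjusted p = 0.72), at 358, 302 and 327 CPM in the deletion cultures against 366, 375 and 405 CPM in the wild-type cultures. IDH1 and COX7 were the 2 members whose deletion cultures all lay below the wild-type cultures, as in 7.22% of genes tested.

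The fit with the replicate number as a block, which takes up the offset of replicate 1, called 1 member in each direction. QCR9, a small complex III subunit, was higher in the deletion (log2 0.41, adjusted p = 0.0381) at 383, 171 and 196 CPM in deletion cultures 1, 2 and 3 against 239, 148 and 155 CPM in wild-type cultures 1, 2 and 3. ATP1 was lower (log2 −0.51, adjusted p = 0.04), at the values given above. In that fit 19.9% of genes tested were higher and 7.54% lower, so 1 of 45 in each direction is below the background. With replicates 2 and 3 only, 4 members were lower, IDH1 (−0.32, adjusted p = 0.0394), COX7 (−0.29, 0.0414), ATP1 (−0.27, 0.0322) and ATP3 (−0.30, 0.0438), where 4.61% of genes tested were lower and 22.9% higher.

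In the unlabelled libraries, too, no member passed. Here 0 of 45 were called in either direction, where 3.23% of 5509 genes tested were higher and 0.0726% lower, and 0 members passed an unadjusted p under 0.05. The median difference was −0.21 over the members and −0.04 over all genes tested. Of the members, 37 of 45 were below 0, against 54.06% of genes tested. Among them were all 8 genes of complex IV, but COX12 (−0.04) stood at 0.03 with replicates 2 and 3 only. The lowest p was that of ATP7, a stator subunit, at 486, 579 and 541 CPM in the deletion cultures against 797, 640 and 642 CPM in the wild-type cultures (log2 −0.37 ± 0.20, adjusted p = 0.585). ATP14 had 398, 454 and 430 CPM against 531, 482 and 606 CPM (log2 −0.34 ± 0.19, adjusted p = 0.665), and COX7 had 250, 354 and 322 CPM against 381, 366 and 443 CPM (log2 −0.36 ± 0.22, adjusted p = 0.696). These 3 were the members whose groups did not overlap, all lower in the deletion, as were 4.74% of genes tested. The median of all genes moved by less than 0.1 between TMM and DESeq2 scaling.

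No member passed a test of the genotype difference in these changes. For the change from first to last point, deletion minus wild type, edgeR called 0 members, where 0.0361% of genes tested were higher and 0.0180% lower. By unadjusted p under 0.05, 3 members were lower and 0 higher, COX5A (−0.43 ± 0.19, adjusted p = 0.548), QCR2 (−0.58 ± 0.27, adjusted p = 0.589) and SDH4 (−0.47 ± 0.23, adjusted p = 0.59). The members' median was −0.22, against −0.00 over all genes tested, and 38 of 45 were below 0, against 50.55% of genes tested. Without replicate 1 of both genotypes that median was 0.01. For the change near 18 min 0 members differed, where 0.0721% of genes tested did, with 0 members and 269 genes at an unadjusted p under 0.05. For the change with labelling 0 of 5545 genes differed, with 1 member and 318 genes at an unadjusted p under 0.05. With replicates 2 and 3 only, 2 members were called higher (COX8 and ATP15) and 4 lower (QCR2, FUM1, COX5A and ACO1) for the change from first to last, where 8.41% and 6.98% of genes tested were. ACO1 then stood at −0.39 (adjusted p = 0.0485) and QCR2 at −0.70 (adjusted p = 0.0185).

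The median member kept more of its T>C label than the median gene near 8 and 18 min, and less near 58 min. At the first point the median member carried 2.64%, 2.44% and 2.72% converted T above the unlabelled library in deletion cultures 1, 2 and 3, and 2.76%, 2.55% and 2.80% in the wild-type cultures. Near 8 min, 77.8%, 73.0% and 69.8% of that label was left in the median member in the deletion cultures and 70.6%, 66.5% and 67.6% in the wild-type cultures. The median over all genes was lower in every culture, at 66.7%, 60.6% and 58.01% in the deletion and 55.0%, 48.6% and 51.4% in wild type. Near 18 min the members held 37.9%, 34.0% and 32.3% in the deletion and 32.0%, 28.2% and 30.2% in wild type, again above all genes at 31.2%, 28.0% and 27.0% and at 24.9%, 22.7% and 24.0%. Near 58 min the order was turned, with 2.75%, 2.45% and 2.66% left in the members in the deletion and 2.10%, 2.60% and 2.72% in wild type, below all genes at 3.54%, 3.05% and 3.03% and at 2.40%, 2.87% and 3.04%. These are descriptions, and no test sets the members against the other genes.

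**Figure D5:**
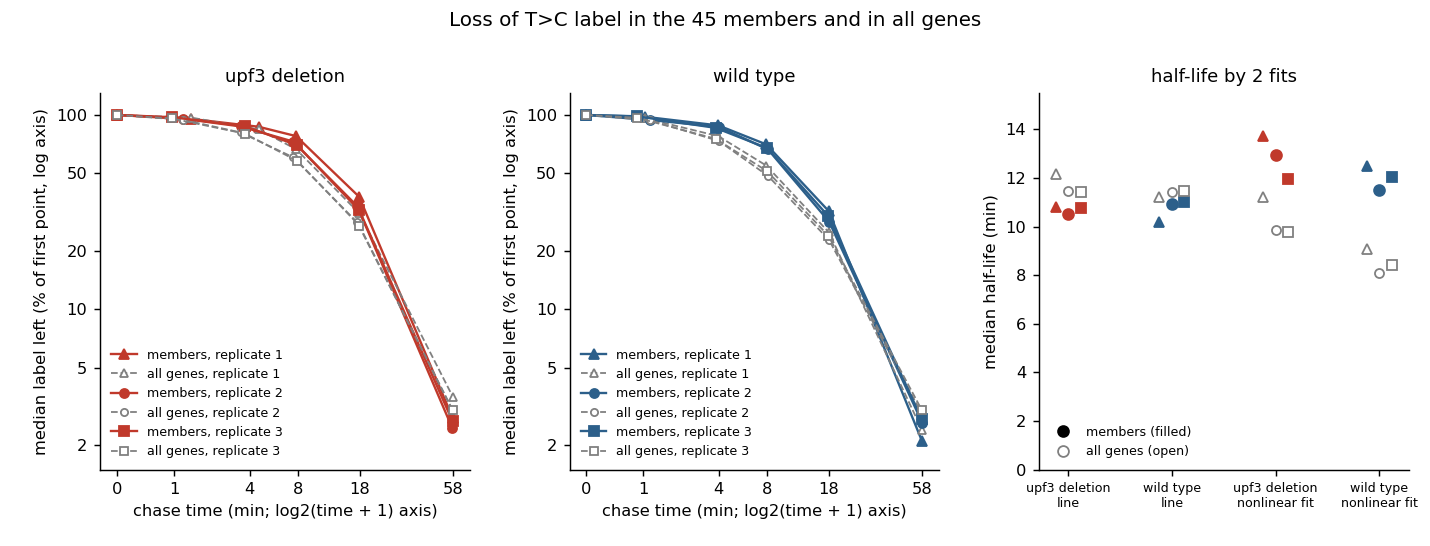
Median share of first-point T>C label left (y axis, log scale) against chase time (log2(time + 1) axis) in the upf3 deletion at the left and wild type in the middle, for members in colour and all genes in grey, with 1 line for each culture; at the right, median half-lives by 2 fits. Members lie above all genes near 8 and 18 min and below them near 58 min, and their median half-life lies below that of all genes by the line and above it by the nonlinear fit.

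The half-life of the members relative to all genes depended on how the curve was fitted. A log-linear line weighted by reads gave the median member 10.7 ± 0.146 min in the deletion and 10.7 ± 0.441 min in wild type (SD, n = 3 each), and all genes 11.7 ± 0.400 and 11.4 ± 0.151 min. A nonlinear single exponential, which weighs the early points more, gave members 12.9 ± 0.887 min in the deletion and 12.0 ± 0.486 min in wild type, and all genes 10.3 ± 0.808 and 8.53 ± 0.502 min. When each gene's nonlinear half-life was averaged over the wild-type cultures, the median gene had 8.588 min and 42 of 45 members lay above it. NDI1 and QCR9 lay below, and SDH2, at 8.585 min, lay at the median.

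By neither fit did a member pass the test of half-life between genotypes. With the line, limma called 0 of 5333 genes in either direction (Benjamini-Hochberg), 213 longer and 89 shorter ones had an unadjusted p under 0.05, and 1 member did. That member was ATP3, with 7.89, 8.97 and 9.13 min in the deletion cultures against 10.8, 12.9 and 13.7 min in the wild-type cultures (log2 −0.52 ± 0.16 SE, limma adjusted p = 0.857). Its half-life by the nonlinear fit was 11.6, 13.2 and 13.8 min against 14.1, 12.0 and 13.0 min, with overlap. Next by p were KGD1, the E1 subunit of 2-oxoglutarate dehydrogenase (log2 0.54 ± 0.24, limma adjusted p = 0.863), and KGD2 (log2 −0.26 ± 0.13, limma adjusted p = 0.869). Groups did not overlap in 2 members above and 4 below wild type by the line, where 7.54% and 4.50% of genes tested were above and below. By the nonlinear fit limma called 20 of 5412 genes longer, which is 0.370%, and 0 shorter, and 0 members. The deletion cultures all lay above the wild-type cultures in 10 members, as in 21.8% of genes tested, and all below in 0, as in 1.16%.

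By the nonlinear fit, label loss among the members was fastest in NDI1 and slowest in the cycle genes FUM1 and LSC2, an order that the line did not give. By the line NDI1 had 10.6 ± 0.358 min in the deletion and 10.5 ± 1.82 min in wild type, close to the median member, and the shortest mean half-life was that of COX6 in the deletion and of RIP1 in wild type. By the nonlinear fit NDI1 had half-lives of 5.14, 6.12 and 5.09 min in the deletion cultures and 6.15, 4.35 and 5.67 min in the wild-type cultures (log2 difference 0.03, limma adjusted p = 0.968). Near 8 min it held 41.1%, 42.5% and 30.9% of its label in the deletion and 37.5%, 31.4% and 31.6% in wild type, and near 18 min 8.93%, 16.4% and 16.0% and 5.10%, 12.0% and 19.0%. FUM1 (chromosome XVI, 47336 to 48802) had 20.7, 17.5 and 18.2 min in the deletion cultures and 19.4, 17.1 and 18.2 min in the wild-type cultures, and still held 64.6%, 51.9% and 52.5% of its label near 18 min in the deletion and 57.4%, 47.7% and 55.8% in wild type. Each value of NDI1 lay below each value of FUM1. LSC2 (mean 18.4 ± 1.10 min in the deletion and 17.7 ± 1.09 min in wild type) and ATP2, the F1 beta subunit (15.4 ± 2.05 and 16.9 ± 2.58 min), came next in wild type, and the ranges of LSC2 and ATP2 overlapped that of FUM1.

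By group, the nonlinear median in the deletion and in wild type was 13.6 and 12.25 min for the 10 cycle genes, 12.5 and 11.8 min for succinate dehydrogenase and 11.8 and 9.87 min for complex III. It was 13.4 and 12.1 min for complex IV and 14.1 and 13.4 min for the ATP synthase. Over all genes this median was also longer in the deletion, at 10.3 against 8.53 min. SDH2 had 9.88, 11.8 and 9.74 min in the deletion cultures against 8.75, 8.25 and 8.75 min in the wild-type cultures, which did not overlap (log2 0.28, limma adjusted p = 0.414). CYC1 had 15.7, 12.2 and 12.0 min against 8.76, 10.97 and 9.68 min, also without overlap (log2 0.43, limma adjusted p = 0.285). CIT1 had 15.8, 13.2 and 11.9 min against 12.1, 11.5 and 10.2 min (limma adjusted p = 0.445). RIP1 (9.39 ± 0.486 and 8.91 ± 1.15 min), COX5A (9.43 ± 0.385 and 9.11 ± 0.566 min), ATP1 (14.5 ± 0.995 and 14.9 ± 0.593 min) and ATP5 (14.9 ± 1.01 and 14.5 ± 0.429 min) overlapped between the genotypes. Because conversion is a share of the reads, it also falls when unlabelled RNA is added, so the amount of label (rate times reads) was fitted as well, with 0 members called. The line to the amount gave the median member 10.4 ± 0.405 min in the deletion and 10.8 ± 0.224 min in wild type, and all genes 11.6 ± 0.428 and 11.3 ± 0.182 min. The nonlinear fit to the amount gave members 11.3 ± 0.974 min in the deletion and 10.3 ± 0.764 min in wild type, and all genes 11.1 ± 1.46 and 8.94 ± 0.501 min. In deletion replicate 1 the members then lay below all genes, at 12.4 against 12.7 min, and in the other 5 cultures above them. Members with a longer nonlinear half-life in wild type tended to a smaller decrease near 18 min (Spearman 0.399 over 45 genes, a description, since both measures come from the same libraries).

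Other genes of respiration changed near 18 min in both directions, as did genes in general, of which 14.0% fell and 15.1% rose. The lists are short, their counts are descriptions, and no list was tested as a set. Of 11 regulators of respiratory genes, 3 fell near 18 min and 0 rose, where the list's median was −0.21. HAP4, which encodes the limiting activator subunit, had 35.3, 49.9 and 53.7 CPM near 18 min against 165, 242 and 187 CPM at the first point in the deletion cultures. The wild-type cultures had 48.8, 49.0 and 54.4 CPM against 141, 219 and 222 CPM, and HAP4 fell in every culture (log2 −2.01 ± 0.23, adjusted p = 9.27e-08). It was lowest near 8 min, at 24.4 to 27.1 CPM in the deletion and 27.7 to 32.3 CPM in wild type, and had not returned near 58 min (log2 −2.21 ± 0.24 against the first point, adjusted p = 2.6e-08). At the first point it stood above the unlabelled libraries (log2 1.20 ± 0.23, adjusted p = 0.000419), as did ROX1, the repressor of low-oxygen genes (log2 0.71 ± 0.12), and PUF3, an RNA-binding regulator of mitochondrial transcripts (log2 0.57 ± 0.14). In replicate 1 of both genotypes HAP4 did not show that rise clearly, with 165 against 144 CPM in the deletion and 141 against 176 CPM in wild type. Whether HAP4 bears on the members was not tested.

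Assembly factors of the respiratory complexes, 34 genes in all, had 10 lower and 1 higher near 18 min (median −0.30) and 16 lower and 0 higher at the last point (median −0.39, against 0.05 over all genes tested). Of all genes tested, 14.0% were lower and 15.1% higher near 18 min, and 10.9% were lower and 13.5% higher at the last point. The 3 lowest p near 18 min were SDH5, which flavinylates Sdh1 (−0.72, adjusted p = 3.28e-05), COX18 (−0.54, adjusted p = 0.000271) and CBP4, a complex III assembly factor (−0.42, adjusted p = 0.000937). CBP4 (−0.56), SDH5 (−0.66) and COX18 (−0.54) were called lower at the last point too. Of 6 other electron donors 2 rose and 0 fell: GUT2, the mitochondrial glycerol 3-phosphate dehydrogenase (1.25 ± 0.12, adjusted p = 5.27e-09), and DLD1, a D-lactate dehydrogenase (0.86 ± 0.11, adjusted p = 3.01e-07). Of 13 genes listed under pyruvate dehydrogenase and pyruvate entry, PYC1, a pyruvate carboxylase, rose (1.58 ± 0.22, adjusted p = 1.71e-06). MPC3, a subunit of the pyruvate carrier, fell (−1.03 ± 0.20, adjusted p = 0.00026). KGD4 on that list also fell, but it belongs to the 2-oxoglutarate dehydrogenase complex and not to pyruvate entry. The list medians were 0.16 for the electron donors and −0.06 for pyruvate entry.

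Among 12 isozymes and low-oxygen paralogs, 2 rose and 1 fell near 18 min (median 0.04), where 15.1% of all genes tested rose and 14.0% fell. IDP2, the cytosolic isocitrate dehydrogenase, was among those that rose (0.82 ± 0.18, adjusted p = 0.00071), MDH2, the cytosolic malate dehydrogenase, fell, and CYC7, the other cytochrome c gene, fell at the last point (−1.08 ± 0.22, adjusted p = 0.000413), where CYC1 rose. Of 12 tested translational activators of mitochondrial genes, 4 rose and 2 fell near 18 min (median 0.09). At the first point against unlabelled libraries, counts of higher and lower genes were 3 and 0 for regulators, 0 and 2 for isozymes, 1 and 1 for pyruvate entry, 0 and 2 for electron donors, 2 and 3 for assembly factors and 0 and 4 for translational activators. In that comparison 10.9% of all genes tested were higher and 8.26% lower. Between the genotypes, HAP5, a DNA-binding subunit of the Hap complex, was higher in the deletion (log2 1.08 ± 0.23 over the chase, adjusted p = 0.0497, and 1.57 ± 0.31 in unlabelled libraries, adjusted p = 0.0406). AEP1 over the chase (log2 1.00 ± 0.18, adjusted p = 0.031) and IDP2 in unlabelled libraries (log2 1.51 ± 0.31, adjusted p = 0.0442) were the others called, and limma called 0 genes of the 6 lists in half-life. Of all genes tested, 5.58% were higher in the deletion over the chase and 3.23% in unlabelled libraries.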

How the data were processed

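Total RNA of 6 yeast cultures was measured by SLAM-seq with a QuantSeq 3′ FWD kit, per the labels' protocols. The deposited tables hold, per 3′ window, read counts and T>C conversion rates as a fraction, made by the authors with SlamDunk, per the file headers. The genome build was R64, per the submitters' processing notes; the counting strand and tool versions were not stated in the labels or headers. All 45 members matched RefSeq names.

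Counts were tested in edgeR 4.0.16 (quasi-likelihood, TMM, filterByExpr) in R 4.3.3, with DESeq2 1.42.0 as an alternative. Changes within cultures used all 42 libraries with the culture as a term, and genotypes were compared on summed chase counts or unlabelled counts. Half-lives came from a read-weighted log-linear line, after subtraction of the unlabelled rate, with at least 20 mean reads and 3 points above background; log2 half-lives were tested in limma 3.58.1 (trend, robust). All p-values were Benjamini-Hochberg adjusted over all genes tested. On simulated data, the chase fit recovered 88.5% of genes changed by 2 on the log2 scale and 0% of those changed by 1, the time fit 95% of those changed by 1 and 46% of those changed by 0.5, and the half-life line 32% of those changed by 1. Depth was 11045419 to 23761767 reads per library. In the genotype comparisons of reads and half-lives, errors are those between cultures. For changes over time and their genotype differences, errors come from the spread of libraries around the fit with the culture as a term. The comparison of the last point with 18 min, the 8 min point and the fits to label amount were added after the data were seen.

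Same-numbered cultures deviated together in chase reads (r = 0.932, 0.896 and 0.851 for replicates 1, 2 and 3) and in unlabelled reads (0.757, 0.76 and 0.541) but not in half-lives (0.0567, 0.0302 and 0.0243). Replicates 2 and 3 also went together across numbers, at 0.811 and 0.777 over the chase and 0.484 and 0.49 unlabelled, so much of this is replicate 1 against the other replicates. The main genotype tests on reads held no term for the replicate number, which entered as a block in an alternative fit only. The labels do not state a pairing. Members and the 6 related lists (regulators, isozymes, pyruvate entry, electron donors, assembly factors, translational activators) were chosen with earlier results of these data known. Named members are those past the threshold (the 10 lowest p in full where there are more), otherwise the 3 lowest p, plus CIT1, SDH2, NDI1, CYC1, RIP1, COX5A, ATP1, ATP5 and group extremes; other members named were chosen after their values were seen. Figures were drawn with matplotlib 3.10.9.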

Additional observations from a re-analysis of the deposited data

How the results depend on the processing

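The 11 members lower after labelling and the 21 lower near 18 min remained 10 and 22 under DESeq2 (10 and 21 shared). Near 8 in place of 18 min 11 were lower (ATP5 then 0.0043). For the genotypes, DESeq2 called 564 genes over the chase, 368 unlabelled and 19 for the first-to-last difference, where RLE scaling called 0. The replicate block called 1527 genes over the chase (1 member in each direction) and 849 unlabelled, with no member called unlabelled, and a replicate 1 factor called 1716 (1 higher, 2 lower) and 846. Replicates 2 and 3 only called 1527 over the chase (4 members lower), 782 unlabelled, 2687 after labelling (3 higher, 25 lower), 2500 near 18 min (1 and 33), 2275 at the last point (13 lower) and 853 for the difference (2 and 4). For half-life, 20 genes were called by the nonlinear fit, 3 without the last point and 8 by the nonlinear fit to label amount, and 0 members. The block changed no call of a member in half-life.

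With replicates 2 and 3 only, 20 of 45 members changed sign in the first-to-last difference, among them ATP15, at −0.10 over all cultures and called higher at 0.41 (adjusted p = 0.0438), the one such member with a call. Sign changed in 5 members over the chase, 3 unlabelled, 2 after labelling, 1 near 18 min and 4 at the last point. For the members followed under every alternative, direction reversed, without a call, in the genotype comparison of chase reads for CYC1 (−0.049) and RIP1 (−0.035) under DESeq2 and RLE and for CYC1 (−0.015) with replicates 2 and 3 only, and (−0.014) without the deletion replicate 1 library near 4 min. With replicates 2 and 3 only it also reversed for CYC1 in the difference (0.014), NDI1 after labelling (0.061), ATP1 at the last point (−0.051) and RIP1 unlabelled (−0.041). Half-life reversed for CYC1 (−0.093) and SDH2 (−0.072) by the line to label amount, for ATP1 (0.26), ATP5 (−0.12), KGD2 (0.23) and NDI1 (−0.011) by the nonlinear fit to it, for ATP3 (0.084), COX5A (−0.055) and KGD2 (0.11) without the last point, for KGD2 (0.11) by the nonlinear fit, and for RIP1 (−0.034) with no subtraction. The cause was not tested.

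Leaving out 1 culture at a time, members lower ran from 5 to 25 after labelling (higher 0 to 2, genes 421 to 2086), 12 to 30 near 18 min (higher 0 to 1, genes 977 to 1940) and 3 to 11 at the last point (higher 1 to 3, genes 737 to 1682), the upper ends of the last 2 being without the deletion replicate 1 library near 4 min, which gave 1 higher after labelling and 8 genes for the difference. Genes called ran from 50 to 474 over the chase, 22 to 259 unlabelled and 0 to 24 for the difference. Values ran, over the chase, from −0.70 to 0.020 (ATP1), −0.26 to 0.15 (ATP5), −0.015 to 0.068 (CYC1), −0.075 to 0.12 (RIP1) and −0.035 to 0.21 (SDH2). Unlabelled values ran from −0.80 to 0.0041 (ATP1), −0.52 to 0.095 (ATP5), −0.17 to 0.095 (CIT1), −0.28 to 0.042 (NDI1) and −0.029 to 0.18 (RIP1). After labelling they ran from −0.11 to 0.22 (ATP1), −0.028 to 0.090 (ATP5) and −0.25 to 0.041 (NDI1). ATP1 ran from −0.24 to 0.069 near 18 min, −0.10 to 0.16 at the last point and −0.32 to 0.24 in the difference, where NDI1 ran from −0.18 to 0.12. Half-life values ran from −0.022 to 0.072 (CYC1), −0.10 to 0.15 (NDI1) and −0.100 to 0.17 (SDH2).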
